A study of Mus musculus with 12 samples.

Results

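CD8 T cells that had been activated on plates with antibodies and then kept off them for their last day were compared with cells that had never been activated. The comparison takes 6 of the 12 libraries of the series, the 3 labelled 72h and the 3 labelled Naive, chosen by their column names in the deposited table, and describes all genes. All cells came from the spleens of OT-I mice, which carry a transgenic T cell receptor (TCR) for an ovalbumin peptide, so the Naive cells share that receptor with the activated ones. Naive cells were taken before activation. The 72h cells had received anti-CD3 (2 ug/ml) and anti-CD28 (1 ug/ml) antibodies with IL-2 (10 ng/ml) for 48 h, were then moved to normal culture, and were collected 72 h after the start. The groups labelled 24h and 48h, 3 libraries each, had the same start and are used here to show where the 72h cells differ from cells still under stimulation. The labels call the libraries biological replicates, and give neither the age of the mice, nor the animals behind each replicate, nor whether IL-2 was kept after the plates, so p-values measure the spread between these samples. The extraction notes speak of transferred cells, and whether that applies to these cultures is not given in the sources used here.

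Engagement of the TCR and of CD28 activates the transcription factor families NFAT, AP-1 and NF-kB, which within hours induce immediate early genes, activation receptors and cytokines, while IL-2 acts through STAT5 and mTOR to sustain growth. A resting CD8 T cell instead expresses Klf2, Foxo1, Tcf7 and Lef1, transcription factors that maintain the receptors for lymph node entry, exit and survival (Ccr7, S1pr1 and Il7r among them). The comparison of 72h with Naive, read beside 48h, describes cells after the stimulus was removed. No group stayed on the plates for 72 h, so removal of the stimulus and a further day of culture cannot be told apart.

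Values are TPM, reads scaled for transcript length and then to the same total in each library. Whole reads recovered from the TPM steps came to between 13645576 and 18898986 per library. The Naive libraries were less alike (Pearson r across genes 0.975 to 0.987 on log2(TPM + 1)) than the 72h libraries (0.994 to 0.995), and the limma fit pools 1 spread over the 4 groups. The fit tested 12630 genes that reached 1 TPM in 3 or more libraries, and of these 3100 were called higher at 72h than in Naive cells (24.5%) and 2403 lower (19%). A call is an adjusted p under 0.05 (limma, Benjamini-Hochberg over the genes tested) with an absolute log2 fold change of TPM + 1 of at least 1, which is 2-fold. In 3094 of the higher and 2379 of the lower calls the 3 libraries of each group did not overlap. The call itself makes such separation likely, and it was counted only among called genes, so it is no separate evidence. The filter also passes genes that reach 1 TPM in the 3 Naive libraries alone, so part of the lower calls enters through the group where they are high. Without 1 Naive library 11991 to 12009 genes were tested and 1816 to 1966 were lower. The median log2 fold change over all tested genes was 0.21. Falls reached further than rises, since 207 genes were lower and 62 higher by at least 16-fold. The balance of calls depended on the scaling. Median-of-ratios scaling moved the median of all genes to −0.11 and gave 2117 higher and 3194 lower genes (39.9% of calls higher against 56.3%), while quantile normalization gave 52.9% and limma voom, run on the recovered reads as an alternative added after seeing the data, 49.7%. Differences below are therefore read beside the median of 0.21. Counts of calls in gene lists are likewise read beside the shares of all tested genes. These were 24.5% higher and 19% lower against Naive, and 2.81% higher and 3.22% lower against 48h. Unless a scale is named, a value in brackets after levels is a log2 fold change of TPM + 1, against Naive first and, where a second is given, against 48h.

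**Figure D1:**
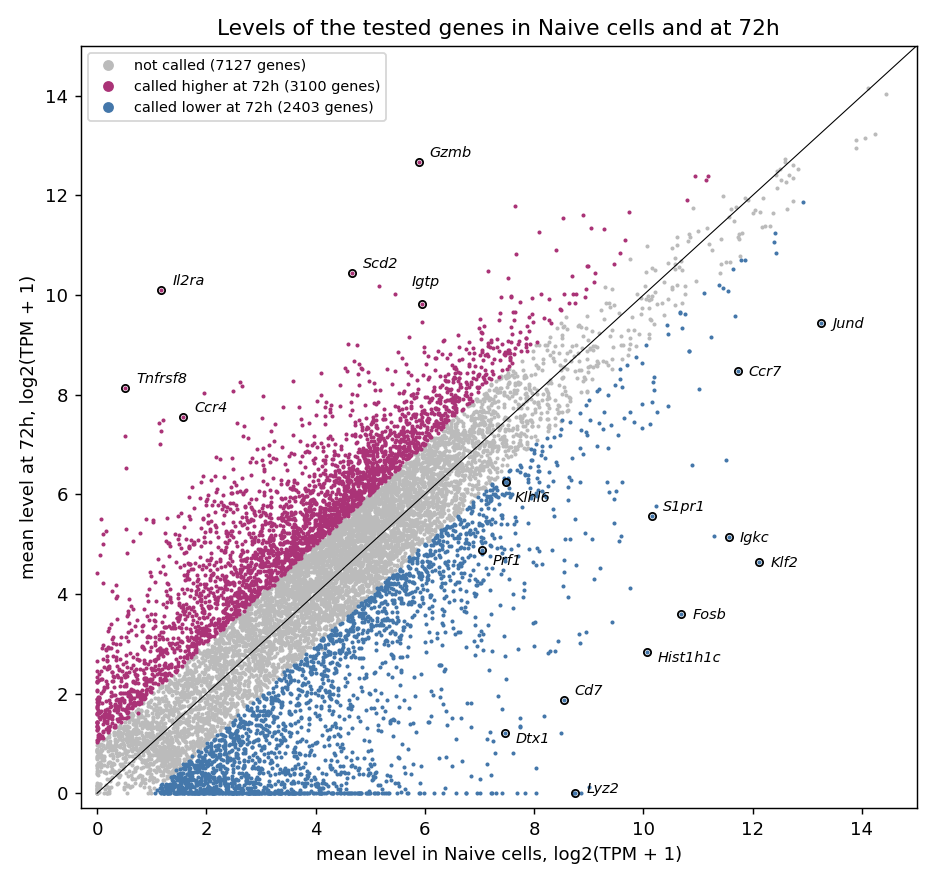
Mean level of each tested gene in Naive cells (x axis) and at 72h (y axis), both as log2(TPM + 1), with genes called higher, called lower and not called at 72h in separate colours. The 3100 higher genes lie above the diagonal and the 2403 lower genes below it, and the lower genes reach further from the diagonal.

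Markers of other spleen cells were higher in the Naive libraries, unequally between them, than at 72h. The summed level of 28 B cell markers was 13947, 9200 and 7399 TPM in Naive replicates 1, 2 and 3 and between 646.8 and 662 TPM at 72h, and all 28 were called lower. Of 36 myeloid markers, 32 were tested and all 32 were lower, with sums of 5431, 3716 and 1953 TPM in Naive cells and between 119.5 and 125 TPM at 72h, and 20 members were at 0 in every 72h library. Csf1r, the receptor for macrophage growth factor, was at 176, 140.2 and 67.7 TPM in Naive cells and listed at 0 at 72h, as were Lyz2 (739, 336 and 218 TPM in Naive) and C1qa (366, 277 and 143). The erythroid and platelet markers (15 of 19 tested lower) summed to 2284, 2100 and 1634 TPM in Naive cells and to between 45.79 and 53.23 at 72h, and the globin Hba-a1 was at 501, 405 and 369.8 TPM and then listed at 0. The neutrophil and dendritic markers (17 of 19 lower, sums of 630.5 to 872.1 TPM in Naive cells and 315.8 to 355.4 at 72h) and the NK cell markers (11 of 13 lower, 766.6 to 1097 and 325.8 to 350.9 TPM) followed the same direction. The largest members of the Naive NK sum were Cd7 and Klrd1, averaging 372 and 186 TPM, and the 72h NK sum was mostly Klrk1. Ighm averaged 471 TPM of the 72h B cell sum, which averaged 655.8 TPM. The 72h neutrophil and dendritic sum was nearly all Bst2, an interferon-induced gene that T cells also express, at 321, 314 and 353 TPM, while 12 members of that list were at 0 in every 72h library. Of the 3 stromal and endothelial markers tested, of 14 listed, all 3 were lower. Several of the falls described below are in genes that these cells also express, and the part of other cells in a given fall was not tested. In bulk RNA, fewer cells of a type and less RNA per cell cannot be told apart.

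The cells themselves expressed the defining CD8 T cell genes in both groups. Cd3e was at 491, 517 and 549.6 TPM in Naive cells and 489, 482 and 477 TPM at 72h, and its interval lay within 0.5 of Naive on the log2 scale, as did those of Cd3g, Cd2 and Thy1. These intervals are of the TPM scaling. Median-of-ratios scaling divides the Naive libraries by 0.798 to 0.8687 and the 72h libraries by 1.068 to 1.093. That lowers such differences, so closeness to Naive can depend on the scaling. Cd8a, the CD8 alpha chain, was lower at 373, 373 and 355 TPM against 737, 783 and 771 (−1.05, SE 0.06, adjusted p = 2.17e-09), a call lost with limma treat. Of 17 T cell markers, 4 fell and none rose (median −0.58), beside 19% of all tested genes lower and 24.5% higher, and 8 fell with median-of-ratios scaling. Their summed level was 15294, 16117 and 17045 TPM in Naive cells and 8730, 8826 and 9195 TPM at 72h. Cd4 was at 8.32, 8.18 and 3.93 TPM in Naive cells and 0.754, 0.475 and 0.471 at 72h. Of 8 CD4 and regulatory T cell markers tested, 2 rose, Ctla4 and Tnfrsf4, which activated CD8 T cells also express, and 3 fell. The list's median of −0.28 became 0.11 without Naive replicate 1.

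**Figure D2:**
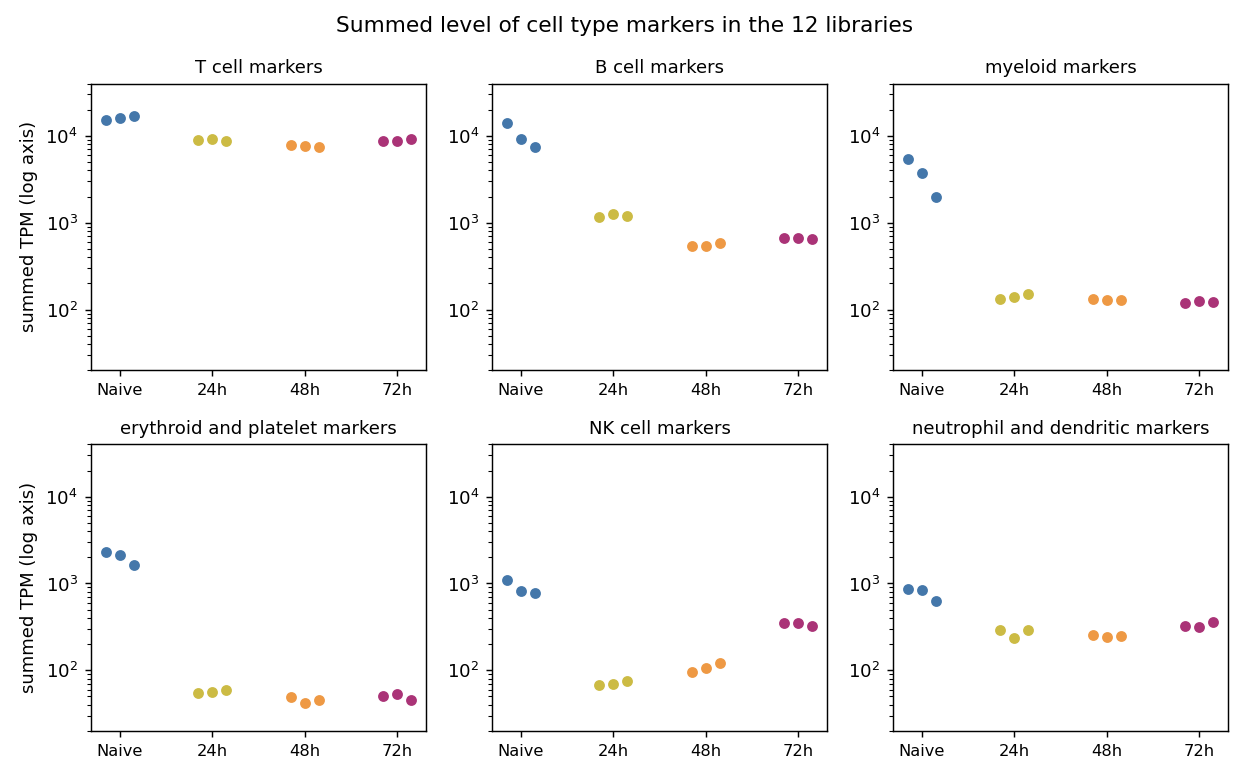
Summed TPM of the marker lists (y axis, log scale) in each of the 12 libraries by group (x axis), 1 point for each library. The B cell, myeloid and erythroid sums are highest in the 3 Naive libraries and lie far lower in all activated libraries, while the T cell sum lies between 7478 and 17045 TPM throughout.

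The largest falls fell partly on those markers. Globins and macrophage and neutrophil genes made up 9 of the 12 genes with the largest fall, and the rest were Klf2, the heat shock gene Hspa1a and the linker histone gene Hist1h1c. With genes on the marker lists set aside, the next were Trf, which encodes the iron carrier transferrin (−6.61), Dtx1, a Notch target and Deltex ubiquitin ligase (−6.25), Hspa1b (−6.53), Fosb and 5 immunoglobulin genes. The latter again are B cell genes, and 1 library moved the values of Igha and Igkv5-39. Without Naive replicate 1 Igha went from −6.24 to −5.65 and Igkv5-39 from −6.19 to −4.99.

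Receptors and mediators of the activated state led the rises that remained after the plates. Il2ra, the alpha chain that gives the IL-2 receptor high affinity, was at 1.54, 0.985 and 1.26 TPM in the 3 Naive libraries and 1123, 1117 and 1045 TPM at 72h. Its log2 fold change was 8.93 (SE 0.08, adjusted p = 1.94e-16), and its difference from the 946, 998 and 964 TPM of 48h was 0.18 (adjusted p = 0.0799), not called. Tnfrsf8, which encodes the costimulatory receptor CD30, rose from 0.626, 0.318 and 0.335 TPM to 293, 281 and 271 TPM (7.64, SE 0.10, adjusted p = 9.21e-15), and its 72h libraries also lay above all 48h libraries (95.6, 91.7 and 84.9 TPM). Ccr4, a chemokine receptor for skin homing, rose from 3.05, 1.38 and 1.53 TPM to 187, 185 and 187 TPM (6.01, SE 0.16). The other genes among the 12 of largest rise were Lif (6.67), Gzmb (6.86), Asns (6.30), Zbtb32 (6.28), Iigp1 (6.20), Bnip3 (6.08), Nrn1 (6.01), Fads2 (5.88) and Scd2 (5.78), the rule for these 12 asking that the libraries of the groups did not overlap. Bnip3, a mitophagy receptor induced by hypoxia, had a larger SE than the rest (0.44), from the spread pooled over 4 groups. Its 24h libraries varied widely (60.5 ± 39.2 TPM, mean ± SD, n = 3), beside 2.9 ± 0.717 TPM in Naive and 259 ± 7.56 TPM at 72h. Il12rb2, a chain of the IL-12 receptor, rose by 5.55, and Cish and Socs2, feedback inhibitors induced by STAT5, rose by 4.68 and 4.43. Of 31 cytokine receptor genes tested, 6 rose and 12 fell, so Il2ra and Il12rb2 stood against the direction of most called members of their list.

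Some genes were called higher at 72h than in each of the other 3 groups, the pattern that sets the cells off the plates apart from both resting and stimulated cells. There were 104 such genes (0.823%), of which 61 averaged 10 TPM or more at 72h. Cxcr3, the receptor that guides effector T cells into inflamed tissue, was at 17.2, 17.1 and 12.4 TPM in Naive, 20.2, 27.7 and 23.8 at 24h, 7.42, 8.36 and 5.34 at 48h and 75.5, 80.2 and 76.1 TPM at 72h. It was thus lowest on the plates at 48h and highest a day later (2.25 against Naive, adjusted p = 1.71e-08, and 3.30 against 48h, adjusted p = 1.19e-08). Klrk1, which encodes the activating receptor NKG2D, was at 41.8, 45 and 24 TPM in Naive cells and 54, 62 and 60.6 at 48h, and reached 211, 216 and 202 TPM (2.52 and 1.82). Klrk1 was also the only one of 12 killer lectin-like receptor genes tested that rose against Naive, where 6 fell beside the lower NK cell markers. Prdm1, which encodes the effector transcription factor Blimp-1, was at 4.42, 3.80 and 2.61 TPM in Naive, 5.69, 5.01 and 4.25 at 48h and 22.1, 23.1 and 19.7 at 72h (2.31 and 1.92). The cysteine protease inhibitor genes Ctla2a and Ctla2b fell during stimulation and then exceeded Naive. Ctla2a was at 149, 109 and 101 TPM in Naive, 37.4, 37.4 and 38.2 at 48h and 377, 355 and 403 at 72h, and Ctla2b rose by 1.62 against Naive and by 3.65 against 48h, although reads of the near-identical pair may be shared. Phf11b, a gene of a PHD-finger family induced by interferon, reached 179, 176 and 183 TPM from 42.6, 33.6 and 24 in Naive and 31, 34.9 and 28.9 at 48h. Tnfrsf8, described above, and Hemgn, Bst1, Itih5, Zfp758 and 1500009L16Rik were the others of the 12 genes with the largest smallest difference, and the log2 fold changes of the last 5 against Naive ran from 1.78 for Zfp758 to 3.88 for Hemgn. Icos, a costimulatory receptor of the CD28 family, Myb, a transcription factor of stem-like T cells, and Lgals1, which encodes galectin-1, also belonged to this group, with 327, 316 and 300.1 TPM for Icos, 77.4, 78.1 and 74.6 for Myb and 1766, 1911 and 2099.5 for Lgals1.

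**Figure D3:**
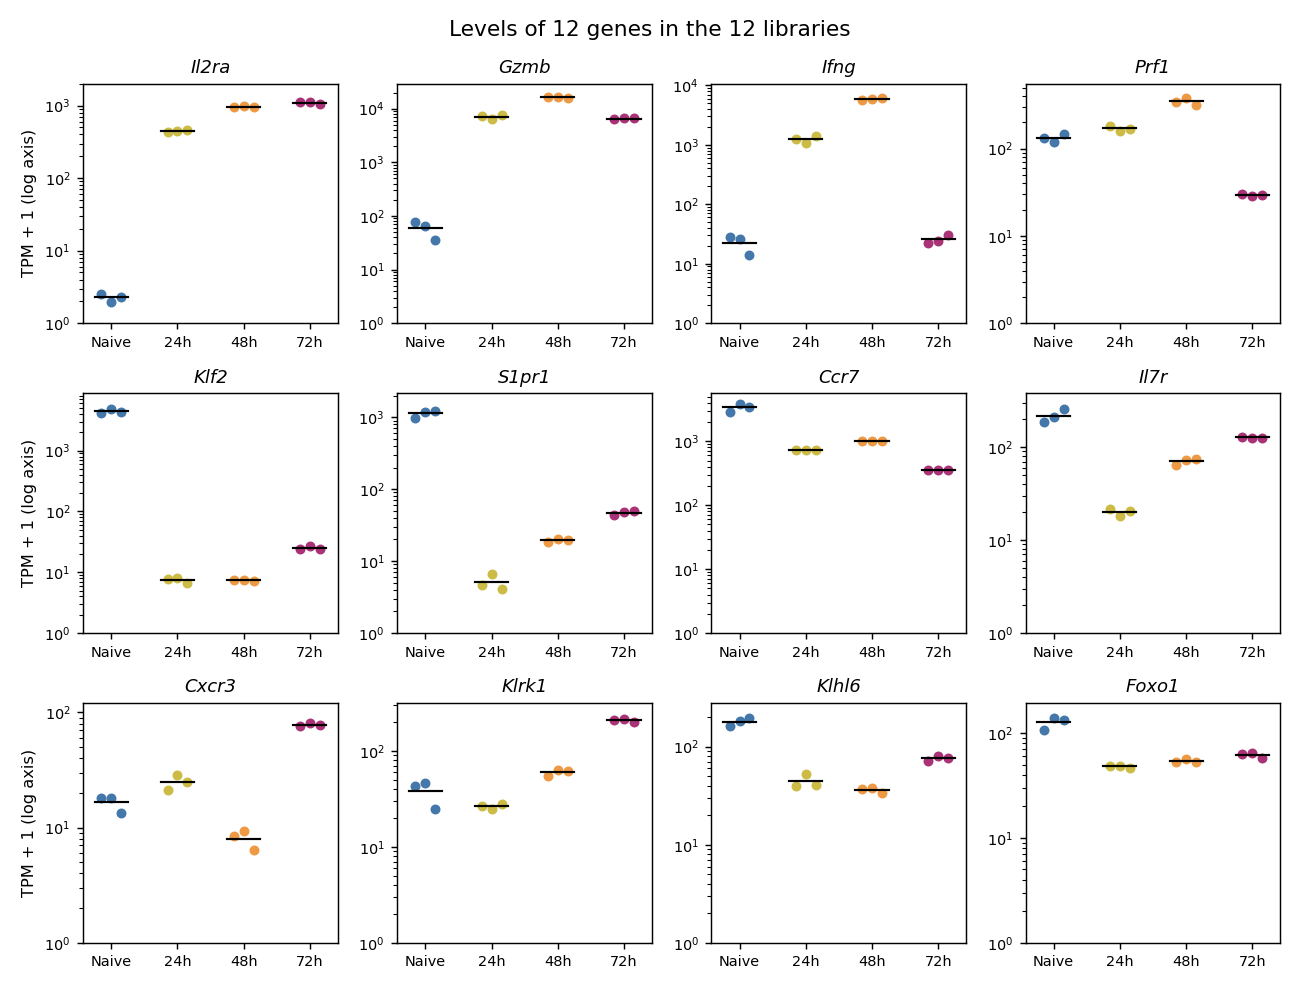
TPM + 1 (y axes, log scale) of 12 genes in the 12 libraries by group (x axes), with 1 point for each library and a line at the mean. Il2ra is between 946 and 998 TPM at 48h and between 1045 and 1123 TPM at 72h, Cxcr3 and Klrk1 are higher at 72h than in any other group, and the 72h libraries of Ifng overlap the Naive ones.

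The GTPases induced by interferon gamma formed the list with the largest share of members called higher at 72h than at 48h, among the 54 lists described. These guanylate-binding proteins (Gbp) and immunity-related GTPases (Irgm, Igtp, Iigp1, Tgtp, Ifi47) disrupt the vacuoles of intracellular pathogens and are induced through interferon-activated transcription factors such as Irf1. Their promoters carry elements for such factors, and the stretches around the interferon-stimulated response element are shown for 5 members that rose, from RefSeq windows of 250 bases before to 50 after each gene's start (GRCm38.p6), 5′ to 3′ on the gene's strand, with matches to the element (GAAA, any pair of bases, GAAA) on either strand in capitals.
Igtp (chr11:58199497-58199556, plus strand): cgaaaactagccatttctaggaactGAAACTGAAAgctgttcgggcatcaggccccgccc
Irgm1 (chr11:48871416-48871475, minus strand): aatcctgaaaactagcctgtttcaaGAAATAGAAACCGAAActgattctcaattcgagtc
Tgtp1 (chr11:48992289-48992348, minus strand): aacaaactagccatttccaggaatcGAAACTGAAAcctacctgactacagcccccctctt
Gbp7 (chr3:142530258-142530317, plus strand): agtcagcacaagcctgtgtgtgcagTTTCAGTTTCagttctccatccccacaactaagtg
Gbp3 (chr3:142559974-142560033, plus strand): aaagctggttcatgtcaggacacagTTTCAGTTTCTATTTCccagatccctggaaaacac
The first match lay at position −30 from the start in Irgm1 and −77 in Tgtp1, with the other 3 between, and in Irgm1 and Gbp3 a pair of matches overlap each other. Of 14 GTPase genes that rose, 10 had a promoter window in the table and 9 of these held the element (90%), against 3.93% of tested genes with a window and 3.44% of all 32851 windows. A GAS site (TTCNNNGAA, an interferon gamma-activated sequence) was in 6 of the 10 (60%) against 8.47% of tested genes and 8.3% of windows, and in the 6 genes that held both, no match of one shared bases with a match of the other. A match is a description of these letters, and the family members share ancestry.

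Of 17 genes on that list, 16 GTPases and Irf1, 14 rose against Naive and none fell (median 2.67). Against 48h 14 rose and none fell (median 1.52), where 355 of all tested genes were higher (2.81%) and 407 lower (3.22%). Igtp was at 68.8, 57.4 and 56.3 TPM in Naive, 389, 417 and 394 at 48h and 892, 915 and 907 at 72h, which is 3.88 on the log2 scale against Naive (SE 0.07, adjusted p = 6.34e-14) and 1.18 against 48h. Tgtp1 was at 31.2, 25.5 and 23.5 TPM in Naive, 75, 78.7 and 78.4 at 48h and 296, 306 and 272 at 72h (3.41 and 1.90). Every 72h library of both genes lay above every library of the other groups. At 24h, however, Igtp already averaged 561.3 TPM and Tgtp1 236 TPM, and 72h exceeded 24h by only 0.69 and 0.30, not called. The summed level of the list averaged 725 TPM in Naive, 3068 at 24h, 1246 at 48h and 3163 at 72h. Its rise from 48h thus followed a fall from 24h. Gbp7 went from 16, 19.8 and 15.9 TPM in Naive to 112, 114 and 99.8 at 72h (2.59, and 1.98 against 48h), and Irgm1 from 22.9, 21.5 and 23.2 to 148, 149.8 and 147 TPM (2.67, and 1.65). Iigp1 rose from 2.43, 0.939 and 0.372 to 157, 156 and 145 TPM (6.20, SE 0.23). Gbp3, Gbp6, Gbp7, Gbp10 and Irgm2 were called higher at 72h than in each of the other groups. Gbp2 did not share this course, with 731, 811 and 766 TPM at 24h and 220.1, 229.6 and 222 at 72h. Gbp8 and Gbp9 were not called against Naive (−0.80 and −0.58) but rose from 48h by 1.03 and 1.38, and Irf1 was at 149.6, 142 and 127 TPM in Naive cells and 118, 118 and 118 at 72h (−0.24, not called). Members of these families resemble each other, and how reads shared between them were counted is not given in the sources used here.

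**Figure D4:**
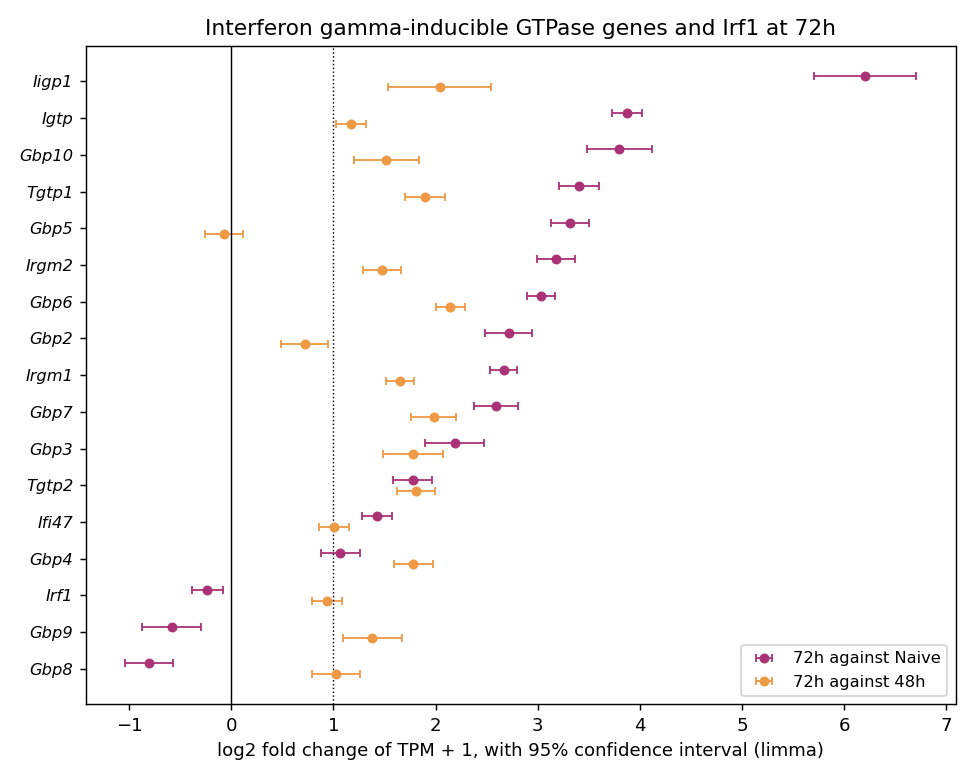
Log2 fold change of TPM + 1 (x axis) with its 95% confidence interval from limma for 16 interferon gamma-inducible GTPase genes and Irf1 (y axis), at 72h against Naive and at 72h against 48h. Of the 17 genes, 14 are called higher in each comparison, and Gbp8, Gbp9 and Irf1 are not called against Naive.

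The antiviral genes did not exceed Naive as a group. Of 31 antiviral interferon-stimulated genes, 5 rose and 10 fell against Naive (median −0.20, or −0.55 with median-of-ratios scaling), whereas 9 rose and none fell against 48h. Ifit3, whose product binds viral RNA, was at 26.4, 25.1 and 28 TPM in Naive cells and 1.74, 2.20 and 1.72 at 72h (−3.25). Irf7, a regulator of type I interferon genes, fell by 2.03 against Naive and rose by 1.10 against 48h. Cmpk2 was the one member called highest at 72h, at 24.3, 23.2 and 22.9 TPM against 9.43, 9.68 and 5.74 in Naive. The cytokine gene Ifng itself was at 21.7, 23.5 and 29 TPM at 72h, overlapping its Naive libraries.

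Genes of the quiescent state were far below Naive at 72h, and a few had risen from their 48h level. Klf2, which drives the exit receptors of naive T cells, was at 4154, 4837 and 4366 TPM in Naive, 6.41, 6.37 and 6.27 at 48h and 23, 25.6 and 23.1 at 72h. Its log2 fold change was −7.48 against Naive (SE 0.08, adjusted p = 1.76e-15) and 1.76 against 48h (adjusted p = 7.3e-09). S1pr1, the receptor for lymphocyte exit into blood, was at 984, 1186 and 1239 TPM in Naive, 3.58, 5.59 and 3.10 at 24h, 17.2, 19.2 and 18.9 at 48h and 43.4, 47.2 and 48.6 at 72h (−4.58, and 1.29 against 48h). Both genes rose again off the plates without approaching the Naive libraries. Il7r, the IL-7 receptor alpha chain, came closer. It was at 184, 209.6 and 254 TPM in Naive cells and 128, 125 and 126 at 72h (−0.76, under the fold minimum), a fall that passed the call when scaled by median-of-ratios (−1.12) or quantile normalization (−1.08). Ccr7, the lymph node homing receptor, went the other way, from 2901, 3820.2 and 3438 TPM in Naive cells and 1022, 998 and 1011 at 48h to 355, 355 and 349 at 72h (−3.25, and −1.51 against 48h), below the libraries of every other group. Tcf7 (−2.58) and Lef1 (−2.05) were called lower than Naive and differed from 48h by 0.41 and 0.26, under the fold minimum. Of 37 naive and quiescence genes, 27 fell and none rose (median −2.58). Klf3 (−5.48) and Tsc22d3, a glucocorticoid-induced leucine zipper gene (−4.70), fell most after Klf2, and 3 members rose against 48h, Klf2, S1pr1 and Arhgap15.

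Both genes of the series title were lower at 72h than in Naive cells. Klhl6, whose BTB and kelch domains bring substrates to cullin-3 for ubiquitination, was at 160.1, 183 and 194 TPM in Naive, 35.7, 37 and 32.9 at 48h and 70.3, 78.3 and 75.6 TPM at 72h. It fell by 1.24 against Naive (SE 0.10, adjusted p = 1.18e-07, a call lost with limma treat) and rose by 1.07 against 48h (adjusted p = 5.62e-06). Among 37 cullin-3 and BTB-kelch genes tested it was the one called higher against 48h, where 2.81% of all tested genes were called higher, a like share. Against Naive 4 rose and 4 fell (median 0.16, and −0.15 with median-of-ratios scaling), with Klhl24 at −2.45 and Klhl5 at 1.78. These calls are below the shares of all tested genes, 24.5% higher and 19% lower. Foxo1 was at 104.6, 138 and 132 TPM in Naive cells and 61.5, 63.6 and 56.3 at 72h (−1.03, SE 0.09, adjusted p = 2.1e-07). Its call lay at the fold minimum and was lost without Naive replicate 2 (−0.948) or 3 (−0.983), without 72h replicate 3 (−0.977), with a pseudocount of 5 (−0.981) and with limma treat. Of 26 FOXO factors and FOXO target genes, a list that shares Klf2, S1pr1, Ccr7, Il7r, Tcf7, Bach2, Cdkn1b, Pik3ip1 and other genes with the preceding one, 19 fell and none rose (median −1.92). Klf4, a factor that restrains division, fell by 5.02, and the pseudokinase gene Trib2 fell by 4.28. Klf4 and Foxo1 are also expressed by B and myeloid cells, whose markers fell as given above.

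Most homing and egress receptors fell. Of 22 homing and egress receptor genes tested, of 23 listed, 4 rose, Ccr4, Cxcr3 and Ccr8 among them, and 13 fell (median −1.74). The fallers included the chemokine receptor genes Cxcr6 (−1.06), Ccr1 (−1.72) and Cx3cr1 (−3.23). Cxcr4, the receptor for the bone marrow chemokine CXCL12, fell from 435, 432 and 434 TPM to 24.3, 25.4 and 19 (−4.20), and Gpr183, an oxysterol receptor, fell by 3.88. Ccr9, the gut homing receptor, which is also on the dendritic marker list, fell by 5.67. Ccr7 and Cxcr5 were lower at 72h than in each of the other groups. Of 29 integrin and adhesion genes, 7 rose and 5 fell (median −0.34), close to the shares of all tested genes (24.5% and 19%). Among them were Cd44, the hyaluronate receptor of activated cells, at 1.38, Alcam at 4.27 and Itgae, the CD103 chain that binds epithelial cadherin, at −4.67.

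At 72h the chemokine genes Ccl3 and Ccl4 were below their Naive level and Ifng was not called against it, while other cytokine genes stayed above it. Ifng was at 27.2, 25 and 12.8 TPM in Naive, 1263, 1062 and 1426 at 24h, 5702, 5841 and 6070.4 at 48h and 21.7, 23.5 and 29 TPM at 72h. The 72h and Naive libraries overlapped (0.24, 95% confidence interval −0.22 to 0.70, adjusted p = 0.305), and the difference from 48h was −7.84 (adjusted p = 7.9e-11). The sign of the first difference turned with median-of-ratios scaling (−0.11), quantile normalization (−0.02) and without Naive replicate 3 (−0.08). Il2, the T cell growth factor, was at 15.1, 15.8 and 16.3 TPM at 48h and 0.295, 0 and 0 at 72h, where Il3, at 57.8, 57.9 and 71.8 TPM at 48h, was listed at 0 in all 3 libraries. The chemokine genes Ccl3 and Ccl4 fell below Naive. Ccl4 was at 151, 79.7 and 65.6 TPM in Naive, 764, 755 and 825 at 48h and 9.47, 5.81 and 10.1 at 72h (−3.34 against Naive, −6.40 against 48h), and Ccl3 differed by −1.39 and −6.48 in the same order. Of 29 cytokine and chemokine genes tested, of 33 listed, 12 rose and 7 fell against Naive (median 0.24), and 1 rose and 15 fell against 48h (median −1.04). The one that rose from 48h was Ccl5, at 846, 765 and 506 TPM in Naive, 28.5, 28.1 and 26.9 at 48h and 61.6, 55 and 61.3 at 72h. Lif, Lta and Il24 remained well above Naive, with 143, 137 and 153 TPM of Lif, 293, 287 and 341 of Lta and 47.8, 39.6 and 46.7 of Il24 at 72h. Csf2 was listed at 0 in Naive and was at 3.80, 2.61 and 1.78 TPM at 72h.

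Immediate early and TCR-induced genes were lower at 72h than in Naive cells, which held them at high levels. Of 36 such genes, 31 fell and 1, Dusp4, rose (median −2.24), and against 48h 16 fell and none rose. Jund, an AP-1 subunit, was at 9303, 10526 and 9434 TPM in Naive cells and 714, 654 and 701 at 72h (−3.82, SE 0.10), and was among the 15 most abundant genes of Naive cells. Fosb, another AP-1 subunit, went from 1414, 2067 and 1489 TPM to 11.7, 10.7 and 11 (−7.07), and its 48h libraries were at 11, 10.7 and 10.4 TPM. Nr4a1, an orphan nuclear receptor that reports TCR signal strength, was at 806, 755 and 687 TPM in Naive, 202, 191 and 196 at 48h and 30.8, 32.4 and 33.6 at 72h (−4.49, and −2.57 against 48h). Cd69, an early activation antigen that also retains cells in tissue, was at 709, 717 and 731 TPM in Naive cells and 66.1, 66.7 and 65.7 at 72h (−3.42). In both genes the 72h libraries lay below those of all other groups. The heat shock gene Hspa1a varied within Naive, at 414, 166 and 201 TPM, and was at 0.398, 0.822 and 0.0533 TPM at 72h.

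In all, 79 genes were called lower at 72h than in each of the other groups (0.625%), 59 of them averaging 10 TPM or more in some group. This set held 11 of the 36 immediate early and TCR-induced genes, among them Nr4a1, Nr4a2, Nr4a3, Egr3, Nfkbia, Tnfaip3 and Rel. Nr4a3 was at 65.9, 80.9 and 98.5 TPM in Naive, 179, 189 and 176 at 48h and 23.9, 24.3 and 22.3 at 72h (−1.74 and −2.90). Egr2, by contrast, was at 7.65, 8.52 and 7.62 TPM in Naive cells and 9.05, 8.51 and 11.4 at 72h (0.25, not called). Orai1, the pore subunit of the calcium channel that feeds NFAT, differed by −1.75 from Naive and by −1.82 from 48h. Prf1, Ccl3, Ccl4, Ccl9, Zhx2, Plaur, Fscn1 and Marcksl1 were also in it, with Plaur, the urokinase receptor gene, at −4.23 and Zhx2, a zinc finger and homeobox repressor gene, at −3.26 against Naive. Of 37 TCR signalling genes and inhibitors of it, 3 rose and 10 fell (median −0.43), and 2 fell and none rose against 48h. Dgka, the diacylglycerol kinase that dampens TCR signalling, was at 581 ± 90.6 TPM in Naive cells and 171 ± 2.51 TPM at 72h (mean ± SD, n = 3, −1.75).

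Cytotoxic genes separated after the plates. Gzmb, the protease granzyme B, was at 74.8, 64.3 and 35.2 TPM in Naive, 16607, 16370.0 and 16094 at 48h and 6378, 6624 and 6672 TPM at 72h, 6.86 on the log2 scale against Naive (SE 0.19) and −1.32 against 48h (adjusted p = 0.000144). Prf1, the pore-forming perforin that delivers granzymes, was at 133, 117 and 145 TPM in Naive, 346, 375 and 318 at 48h and 29.3, 27.7 and 28.1 at 72h (−2.17 against Naive, adjusted p = 4.13e-11, and −3.56 against 48h). Cells at 72h thus held more Gzmb and less Prf1 transcript than Naive cells, with no overlap between libraries in either gene. Gzma, granzyme A, followed another course, from 442, 321 and 223 TPM in Naive to 18.1, 17.6 and 14 at 24h, 29.3, 34.2 and 37.5 at 48h and 131, 142 and 149 at 72h. Its fall of 1.17 against Naive was not called without Naive replicate 1 (−0.93) or with limma treat, and its rise from 48h was 2.04. Of 25 cytotoxic granule genes tested, of 28 listed, 12 rose and 5 fell against Naive (median 0.70), and 4 rose and 5 fell against 48h. The 4 that rose from 48h were Gzma, Gzmk, Ctla2a and Ctla2b, and the 5 that fell were Gzmb, Gzmc, Prf1 and the granzyme inhibitor genes Serpinb9 and Serpinb6b. Serpinb9 went from 382, 401 and 401 TPM at 48h to 64.2, 67.3 and 61.6 at 72h, still above the 18.1, 13.3 and 10.5 TPM of Naive.

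Costimulatory and inhibitory receptors were partly retained. Tnfrsf9, which encodes the costimulatory receptor 4-1BB, was at 7.21, 3.84 and 4.40 TPM in Naive, 1151, 1129.5 and 1114 at 48h and 308, 304 and 301 at 72h (5.67 against Naive, −1.89 against 48h). Tnfrsf4, which encodes OX40, was higher than Naive by 4.61 and differed from 48h by −2.05. Of 20 costimulatory receptor genes tested, 9 rose and 5 fell against Naive (median 0.57), and 3 rose and 7 fell against 48h, with Icos and Tnfrsf8 on the rising side of both. Pdcd1, which encodes the inhibitory receptor PD-1, was at 2.16, 1.71 and 0.701 TPM in Naive, 91.1, 96.6 and 102 at 24h, 53.1, 46.1 and 46.6 at 48h and 15.5, 17.8 and 15 at 72h (2.80 against Naive, −1.54 against 48h). Its 72h level lay above all Naive and below all 24h and 48h libraries. Lag3 was at 26.6, 17 and 11.2 TPM in Naive, 399, 369.6 and 335 at 48h and 197, 193 and 209 at 72h (3.46), Ctla4 rose by 2.77 and Cd200 by 2.88, while Tigit (0.96) lay under the fold minimum and Havcr2, which encodes TIM-3, was not called (0.40, adjusted p = 0.0948). Of 22 inhibitory receptor genes, 4 rose and 8 fell (median −0.25), the fallers including the B cell marker Cd72, Vsir (−3.45) and Klrg1 (−4.13), and 3 rose and 5 fell against 48h. The 5 were Pdcd1, Ctla4, Tigit, Cd200 and Adora2a.

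Transcription factors of effector and memory cells also differed one by one. Tbx21, which encodes the effector factor T-bet, was at 18.1, 21.1 and 14.3 TPM in Naive cells and 131, 122 and 127 at 72h (2.78, SE 0.11, adjusted p = 4.93e-11). Its relative Eomes was at 29.3, 21.7 and 26.9 TPM and 24.1, 26.1 and 22.1 TPM (−0.10, interval −0.31 to 0.12), after 95.6, 103 and 98.6 TPM at 24h and 55.5, 53.6 and 49.3 at 48h. Tbx21 had averaged 158.7 TPM at 24h and 63.58 at 48h, and its rise from 48h was 0.99, under the fold minimum. T-bet transcript was thus above Naive at 72h after a dip at 48h, and Eomes overlapped Naive. Zbtb32, a repressor of effector expansion, rose from 1.18, 1.55 and 1.23 TPM to 184, 181 and 174 (6.28), and Rbpj, the nuclear effector of Notch, by 3.65. Batf3 rose by 4.80, a value that 1 library moved, since Naive was at 10.6, 4.59 and 1.09 TPM and the difference was 5.39 without Naive replicate 1 and 4.16 without replicate 3. Tox, a factor of exhausted T cells, was at 18.2, 22.4 and 23.3 TPM in Naive cells and 9.88, 9.80 and 9.56 at 72h (−1.05, a call lost with a pseudocount of 5, without Naive replicate 3 and with limma treat). Bcl6, a factor of memory precursors, fell by 2.98. Of 37 genes on this list, 11 rose and 10 fell (median −0.10, and 0.15 without Naive replicate 2), beside 24.5% and 19% of all tested genes. Against 48h 2, Prdm1 and Myb, rose and 6 fell, Eomes, Bhlhe40, Nr4a1, Nr4a2, Nr4a3 and Rora, beside 2.81% and 3.22% of all tested genes.

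Genes of DNA replication and division were far above Naive at 72h, and none was called against 48h. The origin licensing genes Mcm2 to Mcm7 encode the replicative helicase and are classical targets of the E2F factors, so stretches around the first E2F word are shown for 4 licensing genes that rose, from the same RefSeq windows, with TTTGGCGC or TTTCCCGC on either strand in capitals.
Mcm6 (chr1:128359783-128359840, minus strand): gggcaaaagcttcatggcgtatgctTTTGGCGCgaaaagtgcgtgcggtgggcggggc
Mcm3 (chr1:20820263-20820318, minus strand): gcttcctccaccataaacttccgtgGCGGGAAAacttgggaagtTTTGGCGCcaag
Mcm5 (chr8:75109335-75109392, plus strand): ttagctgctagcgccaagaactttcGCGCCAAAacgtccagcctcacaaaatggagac
Cdc6 (chr11:98907988-98908045, plus strand): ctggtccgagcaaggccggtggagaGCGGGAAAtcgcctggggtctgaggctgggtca
Of 43 replication genes that rose, 35 had a promoter window and 11 of them held a word (31.4%), against 3.52% of tested genes and 1.56% of all windows. The cell cycle homology region TTTGAA was in 27 of 36 mitosis genes that rose and had a window (75%), against 14.5% of tested genes and 17.9% of windows.

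Mcm6 was at 52.7, 51.8 and 49.2 TPM in Naive, 374, 393 and 391 at 48h and 578, 576 and 547 at 72h, 3.44 on the log2 scale against Naive (SE 0.05, adjusted p = 2.3e-14). Mki67, a marker of cycling cells, went from 27.9, 28.5 and 27 TPM to 381, 378 and 342 (3.68, and 0.66 against 48h, under the fold minimum). Of 44 DNA replication genes 43 rose (median 2.45) and of 47 mitosis and spindle genes 44 (median 3.37), with none lower and no member of either list called against 48h. Cdc6, which loads the helicase, rose by 3.77, Rrm2, the ribonucleotide reductase subunit, by 4, and Ccnb1, cyclin B1, by 4.87. Of 19 G1 cyclin, CDK and CDK inhibitor genes tested, 13 rose and 4 fell (median 1.96). Cdkn1b, which encodes the inhibitor p27 of resting cells, went from 232, 309 and 309 TPM to 23.9, 24.4 and 22 (−3.53), and Cdkn1a, which encodes p21, from 22.3, 18.8 and 15 to 136, 140.0 and 136 TPM, after 367, 346 and 343 at 48h. Myc, the driver of growth, was at 85.2, 97 and 108 TPM in Naive, 502, 497 and 476 at 48h and 584, 589 and 587 at 72h (2.59). In the MYC and E2F network 16 of 28 genes tested rose and 4 fell (median 1.21), and E2f3 was also higher than at 48h, by 1.41. Replication-dependent histone genes held calls in both directions, with 4 higher and 6 lower of 23 tested. These are near the shares of all tested genes, 24.5% higher and 19% lower. The median of the list, −0.14, was 0.17 with quantile normalization. The linker histone gene Hist1h1c fell from 1049.7, 1009 and 1159.9 TPM to 6.50, 7.04 and 4.87 (−7.24), and Hist1h3c rose by 2.19. Among DNA methylation and Polycomb genes 8 of 22 rose and 5 fell, beside 24.5% and 19% of all tested genes (median 0.07, and −0.27 with median-of-ratios scaling). Hells, Uhrf1 and Ezh2 rose by 4.25, 4 and 3.77.

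**Figure D5:**
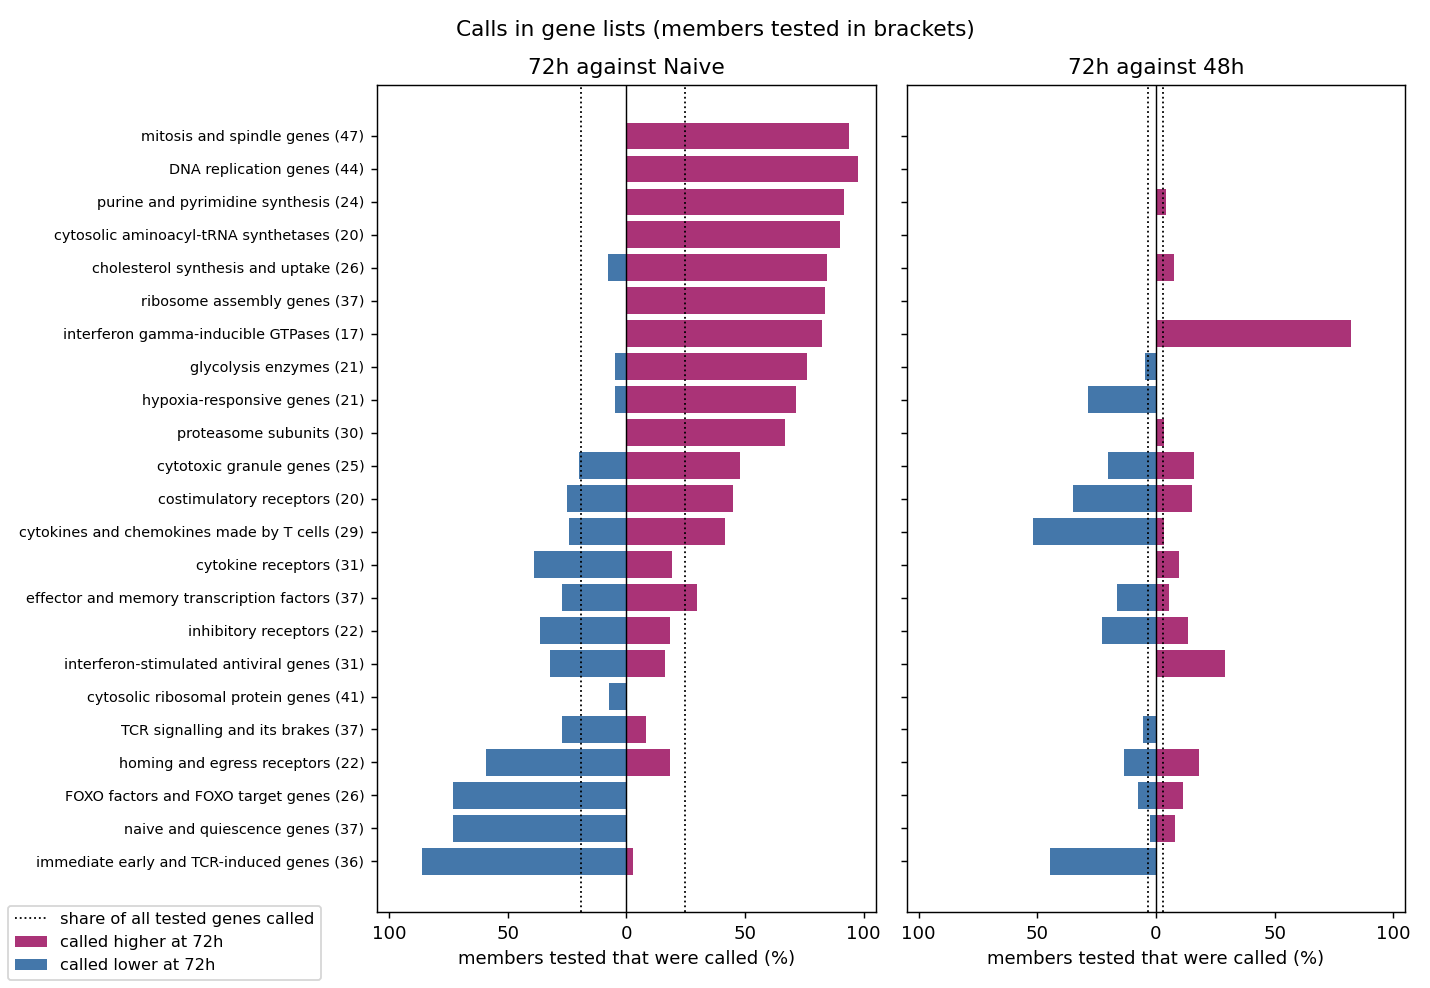
Share of the tested members of each gene list (number tested in brackets, y axis) called higher (right of 0) or lower (left of 0), in percent (x axis), at 72h against Naive (left panel) and against 48h (right panel), with the share of all tested genes called as dotted lines. Growth and division lists lie to the right against Naive and near 0 against 48h, while 14 of 17 GTPase genes are higher and 15 of 29 cytokine genes lower against 48h.

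Genes that build ribosomes, nucleotides and proteasomes were raised. Of 37 ribosome assembly genes 31 rose and none fell (median 1.64), Noc4l by 2.52 and Dkc1, the pseudouridine synthase dyskerin, by 2.27. Cytosolic ribosomal protein genes did not follow, since none of 41 rose and 3 fell (median −0.34, or −0.71 with 9 fallers under median-of-ratios scaling), and 23 had an interval within 0.5 of Naive. Of 20 aminoacyl-tRNA synthetase genes 18 rose (median 2.05), and Gars, the glycyl-tRNA synthetase, went from 77.5, 79.6 and 78.2 TPM to 459.7, 451 and 445 (2.51, and −0.51 against 48h). The element TGATGNAAN, bound by ATF4 and its partners, was in the windows of 5 of 10 such risers with a window, Yars, Gars, Aars, Iars and Tars (50%), against 2.75% of tested genes and 3.95% of windows. Purine and pyrimidine synthesis genes rose in 22 of 24 cases (median 1.80), Ppat, the first enzyme of purine synthesis, by 2.72, and proteasome subunit genes in 20 of 30 (median 1.38), Psmd1 by 2.59.

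Genes of carbon metabolism stayed above Naive, some below their 48h level. The summed level of 21 glycolysis genes was 2296, 2299 and 2151 TPM in Naive cells and 18687, 18592 and 19104 TPM at 72h, a ratio of 8.36, and 25619 to 26510 TPM at 48h. Of these genes 16 rose and 1 fell (median 2.48). Pgk1, phosphoglycerate kinase, went from 209, 191 and 196 TPM to 3445, 3535 and 3642 (4.15), and Hk2, hexokinase 2, from 6.35, 6.94 and 4.11 to 139.5, 136 and 141 TPM (4.39). Several uptake genes fell from their 48h level. Slc2a1, the glucose transporter GLUT1, was at 51.3, 59.4 and 58.5 TPM in Naive, 262, 246 and 242 at 48h and 98.1, 102 and 94 at 72h (0.79 against Naive, under the fold minimum, and −1.34 against 48h). Of 21 glucose, lactate and amino acid transporter genes, 9 rose against Naive (median 0.81) and 7 fell against 48h, and Slc7a5, a large neutral amino acid transporter, was at 477, 470.1 and 442 TPM against 40.9, 48.1 and 45.1 in Naive. Among 21 hypoxia-responsive genes tested 15 rose and 1, Adm, fell (median 1.67), and 6 fell against 48h. Egln3, an oxygen-sensing prolyl hydroxylase, rose by 4.94 against Naive and fell by 1.21 against 48h. Of 45 nuclear respiratory chain genes 18 rose (median 0.81), or 8 scaled by median-of-ratios and 9 after quantile normalization, Uqcrc2 by 1.79. Of 33 TCA cycle and glutamine genes 18 rose and 1, Pdk2, fell (median 1.04). None of 13 mitochondrial genome transcripts rose and 2 fell (median −0.39), or 6 with median-of-ratios scaling.

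Amino acid and lipid synthesis differed in their step from 48h. Of 19 serine, folate, asparagine and proline synthesis genes tested 15 rose (median 2.21), and 4 fell against 48h. Asns, asparagine synthetase, was at 1.41, 1.07 and 1.13 TPM in Naive, 283, 282 and 286 at 48h and 176, 176 and 164 at 72h (6.30). Of 20 integrated stress response genes tested 10 rose and 4 fell (median 1.21), and 1 rose and 6 fell against 48h, among them Cth (−3.40) and Trib3 (−1.23). Cholesterol synthesis and uptake genes rose in 22 of 26 cases and fell in 2 (median 2.5), and none fell against 48h. Insig1, which retains the sterol sensor in the endoplasmic reticulum, was called higher at 72h than in each of the other groups. It was at 115, 177 and 155 TPM in Naive, 171, 174 and 177 at 48h and 359, 363 and 342 at 72h (1.27). Sqle, squalene epoxidase, was at 6.13, 7.86 and 7.53 TPM in Naive cells and 122, 122 and 119 at 72h (3.90). The sterol response word TCACNCCAC was in 1 of 15 such risers with a window, Hmgcs1 (6.67%), against 1.38% of tested genes and 1.24% of windows. Of 22 fatty acid genes tested 14 rose and none fell (median 1.80), and Scd2, a stearoyl-CoA desaturase, went from 24.1, 24.9 and 24.3 TPM to 1403, 1421 and 1358 (5.78). Cpt1a, which admits long-chain fatty acids to mitochondria for oxidation, was not called against Naive (0.11) but rose from 48h by 1.29.

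Lists of survival, antigen presentation and cytokine signalling genes held calls in both directions, and are to be read beside the 24.5% of all tested genes called higher and the 19% called lower. In the BCL2 family 3 of 16 tested rose and 5 fell (median 0.15, and −0.16 with median-of-ratios scaling). Bcl2l1, which encodes the survival protein BCL-XL, went from 11.6, 10.0 and 10.7 TPM to 107, 110.2 and 120.5 (3.27), and Bbc3, which encodes the death inducer PUMA, from 200.2, 226 and 239 to 14.6, 12.7 and 15.8 TPM (−3.86). Of 23 p53 pathway genes tested 9 rose and 6 fell (median 0.55), Ccng1, cyclin G1, by 3.02 and by 0.96 from 48h, under the fold minimum. The GIMAP GTPases, survival factors of lymphocytes, moved apart from each other, with Gimap4 and Gimap7 higher and Gimap6 and Gimap3 lower of 8 tested. Gimap4 was at 423, 388 and 378 TPM in Naive, 292, 308 and 333 at 48h and 889, 967 and 896 at 72h (1.21, and 0.84 with median-of-ratios scaling, under the fold minimum), and Gimap6 at 782, 1066 and 1187 and 157, 157 and 167 TPM in Naive cells and at 72h (−2.63). Of 16 MHC class I and peptide loading genes 3 rose and 3 fell (median −0.08), and Tap1, the peptide transporter, rose by 1.2 (0.83, not called, with median-of-ratios scaling). Among 25 JAK-STAT and SOCS genes 6 rose and 4 fell (median 0.31, and −0.06 with median-of-ratios scaling).

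Degradation, clock and structural genes differed in direction. Of 37 lysosome and autophagy genes 2 rose and 14 fell (median −0.69), a list with genes such as Ctsb and Ctsd that myeloid cells also express. Sqstm1, an autophagy adaptor, fell from 466, 465 and 449 TPM to 73.9, 73 and 77.4 (−2.61). Of 24 unfolded protein response genes 5 rose and 3 fell (median 0.55), no more than the 24.5% and 19% of all tested genes. Canx, calnexin, rose by 1.85, while Dnajb9 fell by 3.90. The clock genes mostly fell. Of 17 tested, 2 rose and 9 fell (median −1.03), Per1 from 407, 617 and 618 TPM to 19.3, 17.9 and 19.1 (−4.77). Of 37 actin, tubulin, S100 and annexin genes 13 rose and 5 fell (median 0.40), and against 48h 6 rose, Vim, S100a4, S100a6, S100a10, Anxa1 and Lgals1, and 2 fell, Tubb2a and Tubb2b. S100a10 was at 344, 294 and 290.5 TPM in Naive, 447, 435 and 455 at 48h and 911, 943 and 1046 at 72h (1.64).

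In the main fit 1813 genes (14.4%) lay close to Naive, with a 95% confidence interval within 0.5 on the log2 scale. The count was 1538 when only the groups compared were fitted and 2072 with median-of-ratios scaling. Which genes pass depends on the scaling, and the fit pools the spread although the Naive libraries were less alike than the 72h ones. Of the 1813, 46 with at least 10 TPM in one group were called against 48h, 28 higher and 18 lower at 72h, so that they differed from their level on the plates while near Naive. Klf10, a repressor induced by TGF-beta, was at 55.9, 64.5 and 80.1 TPM in Naive, 22.1, 22.6 and 19.7 at 48h and 77.1, 76.8 and 73.1 at 72h. Il18rap, a chain of the IL-18 receptor, was at 13, 14.4 and 12.8 TPM in Naive, 3.63, 4.38 and 4.78 at 48h and 14.8, 15.8 and 15.2 at 72h. Both had been lower on the plates. Plk2, a polo-like kinase gene, had been higher, at 84.3, 85 and 90.6 TPM at 48h against 19.5, 18 and 20.4 in Naive and 15.7, 17.4 and 14.8 at 72h. Its small fall against Naive (−0.26, adjusted p = 0.006) was called with no fold minimum. Il2 and Il23a, near 0 in both groups, and Sema4c and Cyb5r1 also came down to this range, and Slfn8 and Phf11c rose to it. Ifng is not among the 1813, since its interval was wider.

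The most abundant transcripts took a smaller share at 72h. The 10 most abundant genes held 13.8% of TPM in Naive cells and 9.69% at 72h, and the 100 most abundant 42.8% and 34.2%. Eef1a1, a translation elongation factor gene, was at 17205, 18062 and 17896 TPM in Naive cells and 18612, 18418 and 17889 at 72h (0.05, or −0.32 with median-of-ratios scaling). The mitochondrial gene mt-Co1 was at 22179 ± 1304 TPM in Naive cells and 16850.0 ± 153 at 72h (mean ± SD, n = 3), a difference of −0.39 on the log2 scale. B2m, the light chain of MHC class I, was at 6726, 6142 and 5689 TPM and 6748, 6821 and 6093 TPM (0.08, or −0.28 with median-of-ratios scaling), with overlapping libraries.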

How the data were processed

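Bulk RNA was measured in 12 libraries of 4 groups, 3 each, and the comparison of 72h with Naive was described across all genes. The deposited table holds TPM values made by the authors, and per the submitters' processing notes FastQC 0.11.9, cutadapt 2.9, STAR 2.7.7a, edgeR 3.36.0 and the build GRCm39 were used. Which tool counted reads, with which strand setting and treatment of shared reads, is not given in the sources used here, so near-identical or overlapping genes are uncertain. TPM is not a count, so no count model was the main test. From the deposited TPM, limma 3.58.1 (R 4.3.3) was fitted on log2(TPM + 1) with a pseudocount of 1, which understates the change of low genes, as 1 model of the 4 group means over all 12 libraries with a trended prior. Every adjusted p is from this limma fit, 2-sided, with Benjamini-Hochberg adjustment over 12630 genes reaching 1 TPM in 3 or more libraries, of 19181 above 0 and 48709 listed. Whole reads recovered from the TPM steps (within 0.001 of a whole number, or 0.02 for large multiples) covered 19175 genes, and for some genes may be the true number divided by a whole factor. They served for depth and for limma voom. Arithmetic used Python 3.11.15, numpy 2.4.6, pandas 2.3.3 and scipy 1.17.1, and figures matplotlib 3.10.9. The scripts were tested on simulated data.

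Named genes are both genes of the series title, 24 anchors, the 12 of largest rise and fall, the 12 of largest smallest difference among those highest or lowest at 72h, up to 5 called members of largest change in each of 54 lists, 10 near Naive but called against 48h, and the 15 most abundant. The comparison and the lists were chosen with earlier results of these data known. Other genes, such as Irgm1, Gbp3, Gbp7, Mcm3, Mcm5, Mcm6, Cdc6, Insig1, Icos and Cd3e, were chosen after their values were seen. Alternatives changed the pseudocount, filter, scaling, fit, fold minimum or libraries. Whether a replicate number marks a shared animal or day is not given, and the main fit held no replicate block. Deviations from the group means of 3 libraries correlated between −0.0522 and 0.0535 in the same-numbered pairs computed. Pairs with different numbers were not computed, so this cannot settle whether the libraries are paired.

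RefSeq promoter windows are of GRCm38.p6, not of the authors' build, and were matched by symbol. No genome was used. Results that need some genes are not reported here.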

Additional observations from a re-analysis of the deposited data

How the results depend on the processing

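Depth, at 13645576 to 18898986 recovered reads per library, limits low genes, and 3 libraries a group with unequal Naive replicates limit the rest. The counts against Naive stayed within 1.5 times of 3100 higher and 2403 lower in the alternatives run, except 1483 lower with a pseudocount of 5 and 6000 higher and 4398 lower with no fold minimum. The counts against 48h (355 higher, 407 lower) were 584 and 663 with a pseudocount of 0.1, 147 and 171 with one of 5, 2964 and 2402 with no fold minimum, 103 and 109 with limma treat, and 543 and 666 with voom, which was added after seeing the data. Genes highest at 72h (104) numbered 44 with a pseudocount of 5, 1042 with no fold minimum and 28 with treat, and those lowest (79) numbered 229 with a pseudocount of 0.1, 27 with one of 5, 597 with no fold minimum, 22 with treat and 207 with voom. Genes near Naive (1813) numbered 3596 with a pseudocount of 5 and 6172 with no filter, where 19181 genes were tested. Other causes were not tested. Leaving out 1 library gave 3065 to 3158 higher and 1816 to 2421 lower against Naive, 342 to 379 higher and 389 to 413 lower against 48h, 87 to 108 highest, 78 to 84 lowest and 1557 to 1893 near Naive, and moved the calls higher to between 55.9% and 63.5%. The low end of the lower counts (1816 to 1966, with 61% to 63.5% of calls higher) came from leaving out a Naive library. Genes that reach 1 TPM in the 3 Naive libraries alone then fail the filter, and 11991 to 12009 genes were tested. These values therefore reflect the filter as well as the library. The fit with a replicate block gave 3100 higher and 2404 lower genes, and 1799 near Naive. Of 288 named genes under 25 settings, 7052 of 7155 values kept their direction and call, 33 lost the call, 33 gained it and 37 changed sign, in 44 genes in all.

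All sign changes were in genes not called against Naive. With median-of-ratios scaling these were Ifng (−0.112), Sema4c (−0.127), Klf10 and Il18rap (both −0.171), Slfn8 (−0.179), Eef1a1 (−0.320), Rpl4 (−0.231), B2m (−0.282), Rps12-ps3 (−0.355) and Tmsb4x (−0.309). With quantile normalization they were Ifng (−0.017), Il2 (0.138), Klf10 (−0.128), Il18rap (−0.029), Slfn8 (−0.140), mt-Co2 (0.101), mt-Nd1 (0.022) and Eef2 (0.290). Library weights turned Eomes (0.104) and Il2 (0.082), and voom turned Sema4c (−0.047), B2m (−0.083), Rps12-ps3 (−0.154) and Tmsb4x (−0.111). Leaving out 1 library turned Ifng (range −0.084 to 0.430), Il2 (−0.190 to 0.012), Rps12-ps3 (−0.107 to 0.248), Sema4c (−0.071 to 0.195), Tmsb4x (−0.024 to 0.206) and Eef2 (−0.091 to 0.039).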
